A study of Mus musculus with 31 samples.

Results

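The synuclein genes Sncg and Sncb and the tubulin polymerization promoting protein genes Tppp3 and Tppp were followed through ribosome-bound RNA of mouse nociceptors, in their central axons, their peripheral axons and their cell bodies. These are 4 of the 55536 genes in the deposited count tables. They were chosen by a rule that used measured values: in central axons, Sncg and Tppp3 were the top 2 genes in the comparison of Cre libraries with control libraries, and Sncb and Tppp were added as the relatives of those genes. The central axon values of Sncg and Tppp3 are therefore given as a description, without a test.

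The libraries come from translating ribosome affinity purification (TRAP), in which ribosomes carrying a tagged protein are pulled down and the RNA on them is sequenced. Cre mice carried Nav1.8-Cre together with L10a-eGFP-fl/fl, so that the neurons which express the sodium channel Nav1.8, most of them nociceptors, carry the tagged ribosomal protein L10a. Control mice had L10a-eGFP-fl/fl alone, that is the same floxed allele without Cre, and their libraries show what the pulldown recovers without the tag being switched on. Spinal cord together with lumbar dorsal roots stood for the central axons, sciatic nerve for the peripheral axons, and lumbar ganglia for the cell bodies. Batch 1 holds 4 Cre and 4 control central axon libraries with 4 Cre and 4 control ganglion libraries. Batch 2 holds 4 Cre and 3 control peripheral axon libraries with another 4 Cre and 4 control ganglion libraries. The labels call the libraries biological replicates and give no age, sex or pooling, and Nav1.8-Cre marks a mixture of neuron types rather than 1 type.

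The 31 libraries held 3.60 to 19.6 M counts, and a count of 0 allows up to 0.153 to 0.833 CPM (counts of a gene in 1000000 counts of its library). Scn10a, which encodes Nav1.8 and drives the Cre, was at 45.1 to 421 CPM in central axon Cre libraries and 0 to 29.9 CPM in their controls. In peripheral axons it was at 42.1 to 304 CPM in Cre libraries and 0 to 127 CPM in controls, so that those groups overlapped. Rpl10a, the gene of the tagged protein, was at 37.4 to 66.8 CPM in central axon Cre libraries and 24.7 to 100.03 CPM in their controls. Summed over 9 nociceptor markers, central axon Cre libraries had 886 to 5155 CPM and controls 98.7 to 424 CPM. Peripheral axon Cre libraries had 513 to 1675 CPM and controls 195 to 1301 CPM. Markers of other cells were present in axon libraries of both genotypes: 10 Schwann cell markers summed to 10733 to 29789 CPM in peripheral axon Cre libraries, and 6 astrocyte markers to 296 to 1347 CPM in central axon Cre libraries. Replicate 3 of the batch 1 soma controls stood apart. Its trimmed mean of M-values (TMM) scaling factor was 0.0547, against 1.30 to 1.78 in the other soma libraries of its batch. The batch 1 soma fold changes of Sncg, Tppp3 and Sncb are given with and without this library. Group means, shares and correlations include it. The name of 1 batch 1 soma control heads 2 columns, so these are called controls a and b here.

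Synucleins are small soluble proteins that bind membranes and synaptic vesicles. Gamma-synuclein, the product of Sncg, is abundant in peripheral sensory and motor neurons, and beta-synuclein, the product of Sncb, is a presynaptic protein of the brain and spinal cord. TPPP proteins bind tubulin and bundle microtubules. Tppp is best known from myelinating oligodendrocytes, and the product of Tppp3 is a shorter relative that lacks the unfolded N-terminal extension of TPPP.

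On GRCm38, the build that the submitters' processing notes name as mm10, Sncg (ENSMUSG00000023064) lies on the minus strand of chromosome 14 at 34370274 to 34374789 and Sncb (ENSMUSG00000034891) on the minus strand of chromosome 13 at 54758860 to 54766595. Tppp3 (ENSMUSG00000014846) lies on the minus strand of chromosome 8 at 105467493 to 105471526 and Tppp (ENSMUSG00000021573) on the plus strand of chromosome 13 at 74009407 to 74035753. All 4 are protein coding, and 0% of their exon bases lie over exons of another gene on either strand. Their merged exons span 852 bases in Sncg, 2145 in Sncb, 1848 in Tppp3 and 5102 in Tppp.

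The results compare relatives within each pair, so it matters whether their reads can be told apart. The coding sequences of Sncg (372 bases) and Sncb (402 bases) matched at 69.75% of 367 aligned bases, and the longest stretch that their transcripts have in common is 16 bases. The stretch stands in capitals with the coding sequence around it, 5′ to 3′, as GENCODE M21 gives it, over coding bases 128 to 203 of Sncg and 125 to 200 of Sncb.
Sncg: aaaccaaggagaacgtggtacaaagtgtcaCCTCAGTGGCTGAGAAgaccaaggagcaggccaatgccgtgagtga
Sncb: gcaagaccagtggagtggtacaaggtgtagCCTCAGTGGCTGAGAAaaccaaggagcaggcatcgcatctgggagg
The coding sequences of Tppp3 (531 bases) and Tppp (657 bases) matched at 68.93% of 531 aligned bases, and their longest common stretch is 15 bases near the stop codon, over coding bases 469 to 531 of Tppp3 and 589 to 657 of Tppp.
Tppp3: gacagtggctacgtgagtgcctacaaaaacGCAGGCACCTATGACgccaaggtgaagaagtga
Tppp: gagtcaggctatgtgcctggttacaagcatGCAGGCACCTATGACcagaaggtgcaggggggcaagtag
In both pairs the longest identical stretch was short, with further matching bases on either side of it broken up by mismatches.

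The promoters of the 2 synucleins are shown because their group means peaked apart, Sncg in Cre somas and Sncb in central axon controls. They run from 250 bases before to 50 bases after the start, 5′ to 3′ on the gene's strand, as RefSeq gives them for GRCm38.p6; 3 of the 4 genes matched the promoter table. Capitals mark the GC box GGGCGG and the CCAAT box CCAAT, each searched on both strands. Sncg lies at chr14:34374620-34374919 and Sncb at chr13:54766546-54766845, both on the minus strand.
Sncg: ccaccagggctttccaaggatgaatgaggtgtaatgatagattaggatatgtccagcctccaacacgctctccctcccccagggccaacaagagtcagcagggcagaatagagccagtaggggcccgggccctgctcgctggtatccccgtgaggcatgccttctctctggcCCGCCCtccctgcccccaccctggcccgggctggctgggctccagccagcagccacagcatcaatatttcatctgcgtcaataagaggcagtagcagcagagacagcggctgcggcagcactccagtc
Sncb: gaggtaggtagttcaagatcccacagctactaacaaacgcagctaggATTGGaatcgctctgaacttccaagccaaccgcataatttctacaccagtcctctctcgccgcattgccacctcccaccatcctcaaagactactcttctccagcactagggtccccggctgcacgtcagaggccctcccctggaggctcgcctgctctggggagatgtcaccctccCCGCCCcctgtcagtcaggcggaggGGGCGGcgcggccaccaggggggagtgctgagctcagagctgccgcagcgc
The Sncg window held 1 GC box and no CCAAT box, and the Sncb window 2 GC boxes and 1 CCAAT box. Of 32851 RefSeq promoters of this length, 35.66% held a GC box and 37.41% a CCAAT box, and a match is a description of the letters only. The letters TATAAA, which 13.62% of promoters held, were in neither window. Sncg had 9 CpG pairs and Sncb 15, with a median of 7 over all promoters.

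Within each pair 1 gene was abundant and the other scarce in nociceptor cell bodies. Compared per length, as CPM for each kilobase of merged exons (RPKM), Sncg was at 7936 ± 5689 in batch 1 soma Cre libraries and 7330 ± 1873 in batch 2 (SD, n = 4 each). Sncb was at 19.0 ± 4.73 and 5.64 ± 2.04 RPKM in the same libraries. The ratio of the mean levels of Sncg and Sncb was therefore 418 in batch 1 and 1300 in batch 2. The TPPP pair was split in the same way. Tppp3 was at 2270 ± 853 and 2479 ± 564 RPKM, and Tppp at 0.921 ± 0.509 and 0.774 ± 0.0914 RPKM. Sncg and Tppp3 were among the most abundant genes of these libraries. By CPM, Sncg ranked between the 4th and 7th gene and Tppp3 between the 5th and 12th in the 4 soma Cre libraries of batch 2. Sncb ranked between 7378 and 9796 there, and Tppp between 10924 and 11912. In batch 1 Cre somas the ranks were wider for the abundant genes, 2 to 79 for Sncg and 7 to 34 for Tppp3, and ran from 3880 to 5572 for Sncb and from 9362 to 12607 for Tppp.

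**Figure D1:**
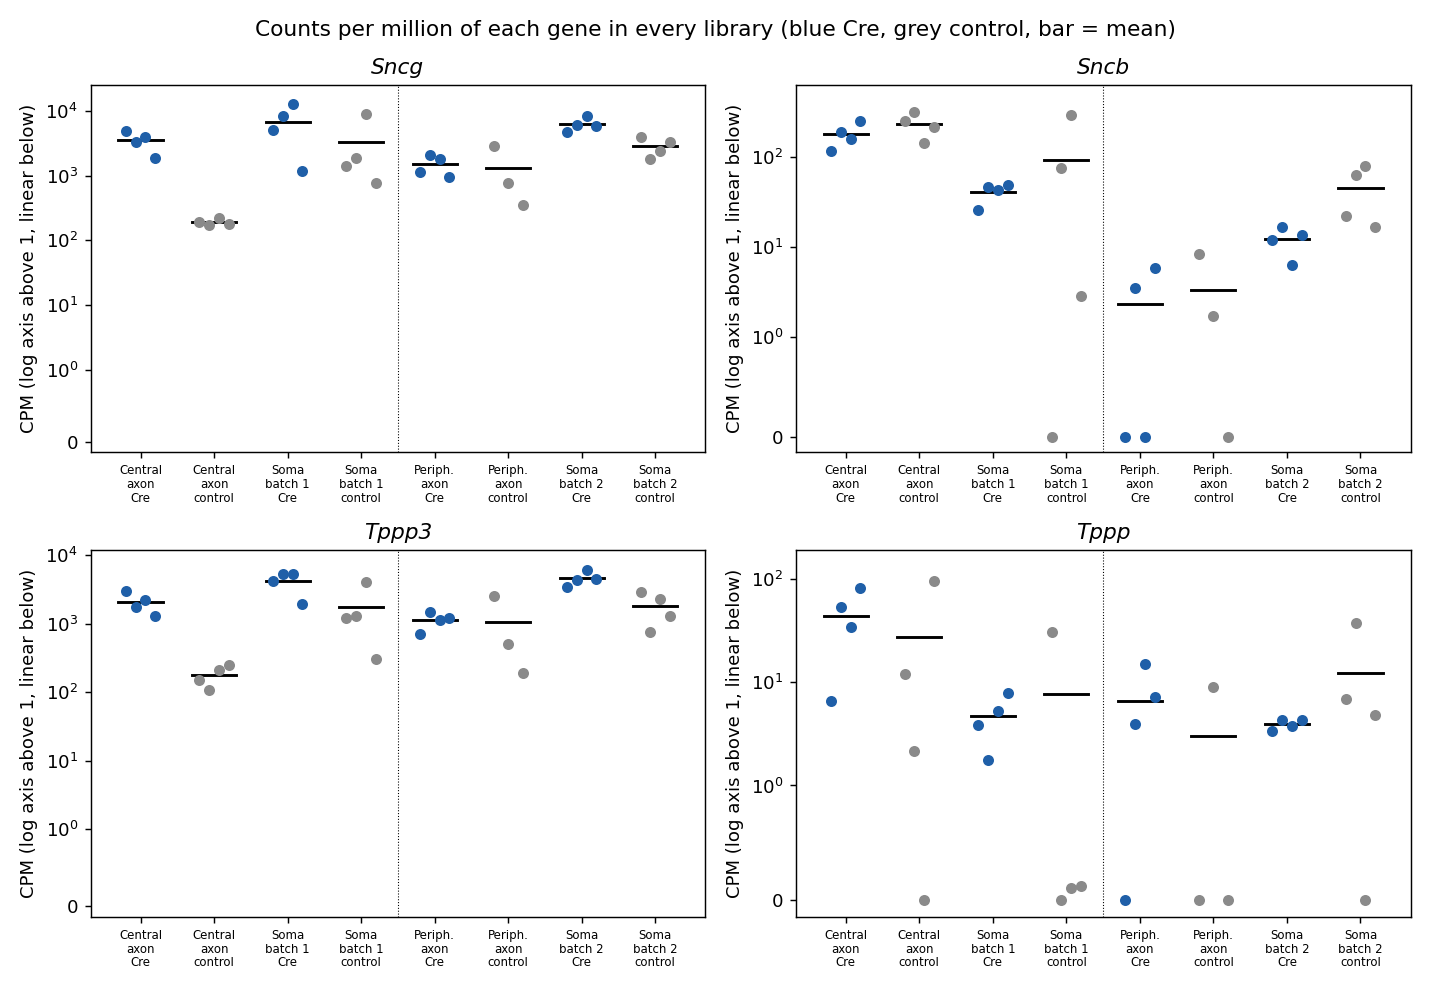
CPM of Sncg, Sncb, Tppp3 and Tppp in each of the 31 libraries, on an axis that is logarithmic above 1 and linear below; points are libraries (blue Cre, grey control), bars are group means, and the dotted line divides batch 1 from batch 2. The central axon Cre libraries of Sncg (1836 to 4918 CPM) lie above all their controls (172 to 224 CPM), while the Cre and control libraries of Sncb overlap there.

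In order of mean CPM over the 8 groups, Sncg was highest in the Cre somas (6761 in batch 1, 6245 in batch 2). Central axon Cre libraries (3503) and soma controls (3280 and 2831) followed, then peripheral axon Cre (1497) and control (1312) libraries, and central axon controls came last (190.1). Neighbours in that order overlapped in range except the last step, between peripheral axon controls (349 to 2817) and central axon controls (172 to 224). Tppp3 had nearly the same order, from 4582 CPM in batch 2 Cre somas and 4194 in batch 1 Cre somas down to 181 in central axon controls, and all its neighbouring groups overlapped. The 2 tables were made separately, so an order across batches also holds the difference between batches.

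Sncb had another order. Its mean was highest in central axon controls (231 CPM) and central axon Cre libraries (177), followed by the soma controls of batch 1 (91.9) and batch 2 (45.2) and the Cre somas of batch 1 (40.7) and batch 2 (12.1). Peripheral axon control (3.35) and Cre (2.35) libraries were lowest. Of the neighbours in that order, the Cre somas of the 2 batches did not overlap, and all others did. Tppp ran from 44.3 CPM in central axon Cre libraries and 27.9 in their controls to 3.03 in peripheral axon controls, with 12.4, 7.75, 6.60, 4.70 and 3.95 CPM in the groups between, and all neighbouring groups overlapped. It was the scarcest of the 4 genes per length in 7 of 8 groups.

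In central axons the Cre libraries held far more Sncg and Tppp3 than controls did, the contrast on which these genes were picked. Sncg was at 4918, 3353, 3906 and 1836 CPM in Cre libraries 1 to 4 and at 189, 172, 224 and 176 CPM in the controls. Each Cre library stood above each control, and the mean was 18.4-fold higher (log2 fold change 4.28, SE 0.39). Tppp3 was at 2984, 1761, 2234 and 1281 CPM in Cre libraries and 152, 109.5, 213 and 249 CPM in controls. Its groups did not overlap either, and the mean was 11.4-fold higher (log2 fold change 3.58, SE 0.42). They led by p-value; by size of fold change Sncg was 245th and Tppp3 372nd of 14189 genes tested. The gene just outside the rule was Acpp, a phosphatase of nonpeptidergic nociceptors, at 25.5 to 126 CPM in Cre libraries and 0 to 0.0808 CPM in controls.

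The relatives did not share that contrast. Sncb, the central nervous system synuclein, was at 116, 186, 158 and 249 CPM in central axon Cre libraries and at 251, 312, 143.5 and 216 CPM in controls. The groups overlapped, and the log2 fold change was -0.35 (SE 0.35). Tppp was at 6.60, 53.8, 34.6 and 82.2 CPM in Cre libraries and 12.2, 2.17, 0 and 97.1 CPM in controls, with a log2 fold change of 0.61 (SE 1.54). Control 4 held the most Tppp of all 31 libraries, and without it the log2 fold change was 3.13 (SE 1.69). edgeR's quasi-likelihood test called 2 of the 4 genes in this contrast, beside 0.0141% of all genes tested, and 2 of 4 did not overlap between groups, beside 8.11% of genes; the rule used this contrast, so nothing is read from those counts.

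Markers of spinal tissue stood beside these values. Summed over 6 spinal neuron markers, central axon Cre libraries had 89.5, 305, 218 and 259 CPM and controls 336, 609, 134 and 283 CPM, so that the Cre library with the least Sncb and the control with the least Sncb were also lowest in these markers. Over 10 oligodendrocyte markers the range was 309 to 6182 CPM in Cre libraries and 722 to 30634 CPM in controls. Control 4, with the most Tppp, was highest in these markers, but control 3, with 20173 CPM of them, held no Tppp count. The part of spinal neurons and oligodendrocytes in the levels of Sncb and Tppp was not tested. In these bulk libraries fewer cells of a type and less RNA per cell cannot be told apart.

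In peripheral axons none of the 4 genes passed the test between Cre and control libraries. Sncg was at 1122, 2106, 1807 and 955 CPM in Cre libraries 1 to 4 and 2817, 771 and 349 CPM in controls 1, 2 and 4. Control 1 was above each Cre library and controls 2 and 4 were below each of them. Tppp3 showed the same arrangement, with 705, 1460.3, 1123 and 1194 CPM in Cre libraries and 2494, 506 and 188 CPM in controls. The log2 fold changes were 0.31 (SE 0.69) for Sncg and 0.19 (SE 0.75) for Tppp3, both with an adjusted p of 1.00 by edgeR's quasi-likelihood test.

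Without control 1 the log2 fold changes in peripheral axons were 1.45 for Sncg and 1.70 for Tppp3, with adjusted p = 0.549 for each by edgeR. That library also held the most Scn10a of its group (127 CPM) and the most of 10 general neuronal markers, 7894 CPM in sum, with 2749 and 398 CPM in controls 2 and 4. The part of neuronal RNA in that control in this result was not tested. Sncb was close to the floor in the sciatic nerve, at 0, 3.52, 0 and 5.89 CPM in Cre libraries and 8.36, 1.70 and 0 CPM in controls. Tppp was at 0, 3.98, 15.1 and 7.28 CPM in Cre libraries and 0, 9.09 and 0 CPM in controls. A count of 0 allowed up to 0.589 to 0.732 CPM in these libraries, and the log2 fold changes of Sncb (-0.44, SE 2.13) and Tppp (1.09, SE 2.24) had errors wider than themselves.

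edgeR called 0 of the 4 genes in peripheral axons, beside 0% of 13970 genes tested. At an unadjusted p under 0.05 the counts were 0 of 4 and 514 of all genes, and DESeq2 called 0 of 4 and 27 of all. None of the 4 genes separated Cre from control libraries, beside 6.44% of all genes that did.

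**Figure D2:**
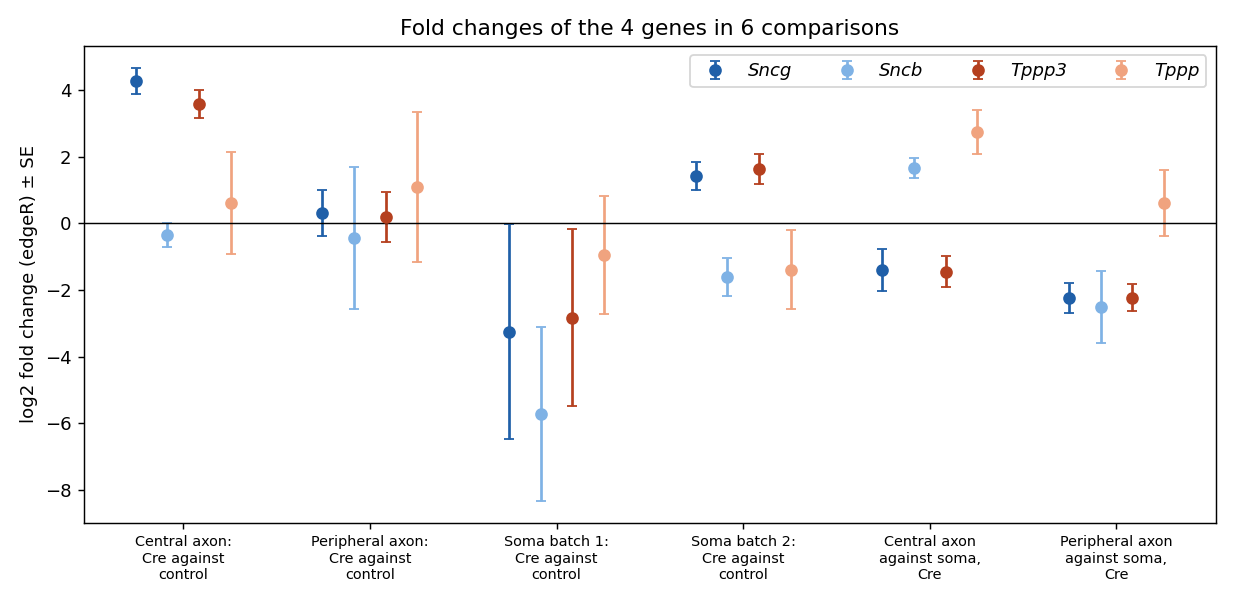
Log2 fold changes (points) with their standard errors (bars) for Sncg, Sncb, Tppp3 and Tppp in 6 comparisons fitted with edgeR. Sncg and Tppp3 lie close together in each comparison; Sncb and Tppp lie above 0 for central axon against soma (1.66 and 2.73), where Sncg and Tppp3 lie below it (-1.40 and -1.45).

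In cell bodies of batch 2 the Cre libraries held more Sncg and Tppp3 and less Sncb than controls, though none of these differences passed the adjusted test. Sncg was at 4633, 5974, 8451 and 5924 CPM in Cre libraries 5 to 8 and at 3891, 1769.6, 2386 and 3278 CPM in controls, a mean 2.21-fold higher. Tppp3 was at 3454, 4374, 5976 and 4523 CPM in Cre libraries and 2875, 744, 2309.9 and 1305 CPM in controls, a mean 2.53-fold higher. For both genes each Cre library stood above each control. Sncb went the other way, with 11.9, 16.7, 6.26 and 13.6 CPM in Cre libraries and 21.7, 62.9, 79.1 and 16.8 CPM in controls, again without overlap by a narrow margin. Tppp was at 3.37, 4.31, 3.77 and 4.35 CPM in Cre libraries and 6.86, 37.99, 0 and 4.87 CPM in controls, which lay on both sides of the Cre libraries.

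The log2 fold changes were 1.42 (SE 0.41, adjusted p = 0.120) for Sncg, 1.63 (SE 0.46, adjusted p = 0.112) for Tppp3, -1.61 (SE 0.58, adjusted p = 0.197) for Sncb and -1.39 (SE 1.17, adjusted p = 0.597) for Tppp by edgeR's quasi-likelihood test. It called 0% of 15280 genes there; at an unadjusted p under 0.05 it passed 3 of the 4 genes and 2503 of all, and DESeq2 called 3 of the 4 and 1162 of all. Without control 5, the Sncg (1.65, adjusted p = 0.0325) and Tppp3 (1.99, adjusted p = 0.0262) differences passed in edgeR. The 3 genes without overlap stood beside 11.9% of all genes without overlap. Markers of glia were lower in the same Cre libraries, with 215 to 369 CPM against 574 to 2571 CPM for 6 satellite glia markers and 458 to 667 CPM against 767 to 2443 CPM for Schwann cell markers, and their part in these differences was not tested.

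In batch 1 somas the comparison turned on 1 control library, and the whole control group held fewer genes than the Cre group. Genes with at least 10 counts numbered 4934 to 7889 in the controls and 12502 to 14015 in the Cre libraries. Fits without control 3 still rest on such controls. Sncg was at 5007, 8339, 12546 and 1154 CPM in Cre libraries 1 to 4 and at 1427, 1872, 9066 and 755 CPM in controls 1, a, 3 and b. Tppp3 was at 4214, 5274, 5333 and 1958 CPM in Cre libraries and 1192, 1304, 4085 and 303 CPM in controls. The groups overlapped because control 3 was high and Cre library 4 low. Sncb was at 25.9, 46.0, 42.6 and 48.3 CPM in Cre libraries and ranged over 0, 74.9, 289.9 and 2.88 CPM in controls. Tppp was at 3.83, 1.75, 5.26 and 7.94 CPM in Cre libraries and, except for 30.8 CPM in control 1, at 0 or 1 count in the controls.

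With all 8 batch 1 soma libraries the log2 fold changes were -3.25 (SE 3.24, adjusted p = 0.615) for Sncg, -2.83 (SE 2.66, adjusted p = 0.595) for Tppp3, -5.72 (SE 2.62, adjusted p = 0.326) for Sncb and -0.94 (SE 1.77, adjusted p = 0.807) for Tppp by edgeR. The sign for Sncg and Tppp3 was opposite to that of the mean CPM, which was 2.06-fold and 2.44-fold higher in Cre libraries, and the median of all genes was -0.45. Without control 3, whose scaling factor was 0.0547, Sncg was at 2.25 (adjusted p = 0.0601), Tppp3 at 2.09 (adjusted p = 0.0242) and Sncb at 0.43 (adjusted p = 0.917) by edgeR. Scaled by library size alone, with all libraries, Sncg was at 1.04 and Tppp3 at 1.28. edgeR called 0 of the 4 genes beside 4.42% of genes tested, 1 of 4 at an unadjusted p under 0.05 beside 1752 genes, and DESeq2 called 0 of 4 and 1878 genes; 0 of 4 did not overlap beside 28.4% of genes.

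The excess in Cre libraries was also compared between peripheral axons and the somas of the same batch. The difference of the log2 fold changes was -1.18 (SE 0.79, adjusted p = 0.678) for Sncg, -1.51 (SE 0.89, adjusted p = 0.614) for Tppp3, 1.12 (SE 1.82, adjusted p = 0.919) for Sncb and 2.43 (SE 2.49, adjusted p = 0.833) for Tppp, peripheral axon minus soma, by edgeR. None of the 4 passed, beside 0.00636% of 15717 genes that did, 1531 with an unadjusted p under 0.05 and 352 by DESeq2; of the 4, neither the unadjusted p nor DESeq2 passed any. Without peripheral axon control 1 the differences for Sncg and Tppp3 were -0.05 and -0.01. At these errors an excess in peripheral axons as large as that in somas, or none, could not be told apart for Sncg or Tppp3.

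Axon libraries were then compared with soma libraries within the Cre libraries of each batch. This comparison leaves out the controls, so it does not remove RNA that the pulldown recovers without the tag. Sncb and Tppp were higher in central axon libraries than in somas, and Sncg and Tppp3 were lower in peripheral axon libraries than in somas. Sncb was 115.6 to 249 CPM in central axons and 25.9 to 48.3 CPM in batch 1 somas, with no overlap, a log2 fold change of 1.66 (SE 0.30, adjusted p = 0.00492 by edgeR). Tppp was at 6.60 to 82.2 CPM and 1.75 to 7.94 CPM, with a log2 fold change of 2.73 (SE 0.66, adjusted p = 0.0172 by edgeR); central axon library 1 lay within the soma range. The test called both, beside 13.7% of 14480 genes called, and the 1 gene of 4 without overlap stood beside 25.2% of genes.

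Control libraries of the same tissue, from mice without Cre, held 143.5 to 312 CPM of Sncb and 0 to 97.1 CPM of Tppp, ranges that overlap those of the central axon Cre libraries. Spinal neuron markers summed to 89.5 to 305 CPM in central axon Cre libraries and 1.36 to 6.99 CPM in batch 1 Cre somas, where 4 of the 6 were at 3 counts or fewer in each library. Oligodendrocyte markers summed to 309 to 6182 CPM and 102 to 657 CPM. The part of those cells in the axon against soma difference was not tested. When the 4 groups of the batch shared 1 fit, the log2 fold changes of Sncb (2.02) and Tppp (3.13) had adjusted p = 1.00 by edgeR. Leaving out central axon Cre library 2 or 4 also ended the Tppp call (2.60, adjusted p = 0.0523, and 2.22, adjusted p = 0.0751, by edgeR).

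For Sncg and Tppp3 the central axon against soma values are a description, since the central axon libraries took part in choosing them. Sncg was -1.40 (SE 0.64) and Tppp3 -1.45 (SE 0.47) on the log2 scale relative to batch 1 somas. Their mean CPM in central axon Cre libraries was 0.518 and 0.492 of that in somas. The ranges overlapped for both, because soma library 4 held 1154 CPM of Sncg and 1958 CPM of Tppp3.

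In peripheral axons the abundant pair fell relative to somas. Sncg was at 955 to 2106 CPM in peripheral axon Cre libraries and 4633 to 8451 CPM in batch 2 somas (log2 fold change -2.25, SE 0.45, adjusted p = 0.00330 by edgeR). No axon library reached the lowest soma library. Tppp3 was at 705 to 1460.3 CPM and 3454 to 5976 CPM (log2 fold change -2.23, SE 0.40, adjusted p = 0.00191 by edgeR). Mean levels were 0.240 and 0.245 of those in somas. Sncb, at 0 to 5.89 CPM against 6.26 to 16.7 CPM, did not overlap but did not pass the test (-2.50, SE 1.08, adjusted p = 0.0986 by edgeR). Tppp gave 0.61 (SE 0.99, adjusted p = 0.663 by edgeR), with ranges of 0 to 15.1 and 3.37 to 4.35 CPM. Peripheral axon controls, from mice without Cre, held 349 to 2817 CPM of Sncg and 188 to 2494 CPM of Tppp3. Those ranges overlap the ones of the peripheral axon Cre libraries.

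The test called 2 of the 4 genes in peripheral axons against somas, beside 31.2% of 15467 genes, and 3 of 4 did not overlap, beside 36.7%. Schwann cell markers were higher in the same axon libraries, summing to 10733 to 29789 CPM against 458 to 667 CPM in somas. General neuronal markers summed to 2559 to 9631 CPM in the axon libraries and 15794 to 16930 CPM in somas. The 9 nociceptor markers summed to 513 to 1675 CPM in the axon libraries and 2740 to 4636 CPM in somas. Of these 9, edgeR called 7 lower and 0 higher, with a median log2 fold change of -1.67 (all genes -0.03). A fall relative to somas was therefore not particular to Sncg and Tppp3. CPM are shares of a library, and the part of Schwann cell RNA in the lower Sncg and Tppp3 values was not tested.

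The 2 axon comparisons were set against each other in 1 model with all 16 Cre libraries, as the peripheral minus the central log2 difference from somas. Sncb differed between the axon types by -4.29 (SE 0.89, adjusted p = 0.00455 by edgeR), where the median of all genes was -0.26. Of Sncb and Tppp, the 2 genes tested here, Sncb passed, beside 13.1% of 16725 genes. Tppp gave -2.33 (SE 1.18, adjusted p = 0.198 by edgeR). As a description, Sncg gave -1.02 (SE 0.77) and Tppp3 -0.94 (SE 0.58). Batch and axon type coincide for the axon libraries, and only the soma libraries of both batches tie the tables together.

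The difference for Sncb has the spinal tissue of the central axon libraries beside it. The spinal neuron markers that summed to 89.5 to 305 CPM in central axon Cre libraries were at 0.730 to 1.39 CPM in peripheral axon Cre libraries, where 5 of 6 had at most 3 counts in each library. The central axon controls held as much Sncb as the Cre libraries. Whether nociceptor axons hold Sncb at all in the dorsal root and spinal cord was not tested by these libraries.

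Shares within a pair do not depend on how libraries are scaled. Of the summed counts of Sncg and Sncb, Sncg made up 94.2% ± 4.24 in central axon Cre libraries (SD, n = 4) and 46.1% ± 10.7 in their controls (SD, n = 4). The lowest Cre library (88.1%) lay above the highest control (60.9%). Sncg was chosen on this contrast, so nothing is read from that separation. In batch 1 somas the share was 98.6% ± 1.78 in Cre libraries and 98.2% ± 1.93 in controls (SD, n = 4 each), and in batch 2 somas 99.8% ± 0.0924 and 98.1% ± 1.61. Peripheral axons had 99.8% ± 0.290 in Cre libraries (SD, n = 4) and 99.8% ± 0.154 in controls (SD, n = 3). Central axon controls were thus the only group in which Sncb counts were about as many as Sncg counts.

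**Figure D3:**
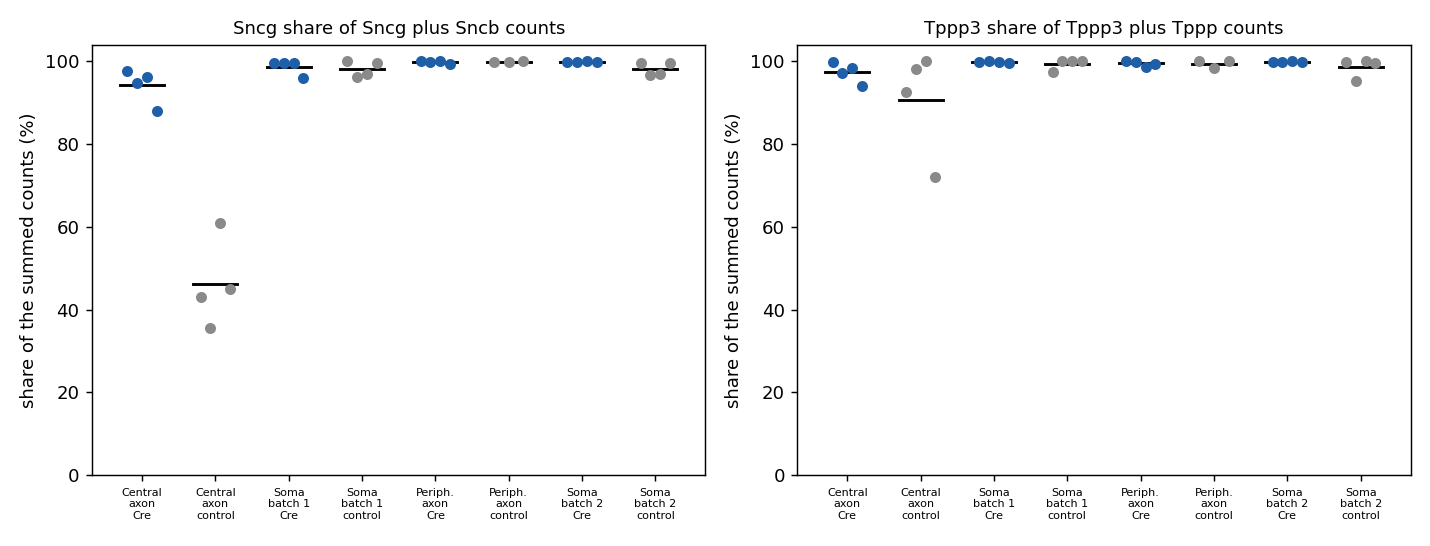
Share of Sncg in the summed counts of Sncg and Sncb (left) and of Tppp3 in the summed counts of Tppp3 and Tppp (right), in percent, for each library (points; blue Cre, grey control) with the group mean (bar), on axes from 0. The Sncg share is 35.5% to 60.9% in central axon controls and 88.1% or higher in the other groups.

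Tppp3 made up 97.3% ± 2.50 of the summed counts of Tppp3 and Tppp in central axon Cre libraries and 90.6% ± 12.9 in their controls (SD, n = 4 each). Control 4, at 71.9%, was the lowest library. In somas the mean share was 99.8% and 99.9% in Cre libraries and 99.4% and 98.6% in controls, in batch 1 and 2. Peripheral axons had 99.4% in both genotypes. The widest 95% Wilson interval of a library's share spanned 3.51 percentage points for Sncg and 3.03 for Tppp3, and these intervals cover counting error only. In batch 2 Cre somas the 4 Tppp3 shares, 99.9017% to 99.937%, lay closer together than the widest of their intervals, which spanned 0.0525 points.

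Shares were tested only in batch 2, whose libraries did not choose the genes. The Sncg share differed by 0.0141 percentage points between peripheral axon and soma Cre libraries (exact two-sided permutation test, p = 1.00, adjusted p = 1.00 over 2 tests). The Tppp3 share differed by -0.463 points, axon minus soma (exact two-sided permutation test, p = 0.143, adjusted p = 0.286). With 4 libraries against 4 the smallest p this test can give is 0.0286. Neither share passed the test.

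Sncg and Tppp3, from unrelated families, followed each other across libraries more closely, by the measure used, than any other gene followed either. Likeness was taken as the smaller of 2 Pearson correlations of log2 CPM with TMM scaling, over the 16 libraries of batch 1 and the 15 of batch 2, among 13989 genes. For this pair r was 0.971 in batch 1 and 0.961 in batch 2, and each was the other's first match of 13988 genes. These libraries share tissue, genotype and batch, and batch 1 includes the libraries that chose both genes, so the values are a description. Per length, the ratio of Sncg to Tppp3 ran from 1.28 to 5.45 over the 31 libraries with a median of 3.11, although Sncg itself ran from 172 to 12546 CPM. The ratio was most even in batch 2 Cre somas, at 2.84 to 3.07.

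**Figure D4:**
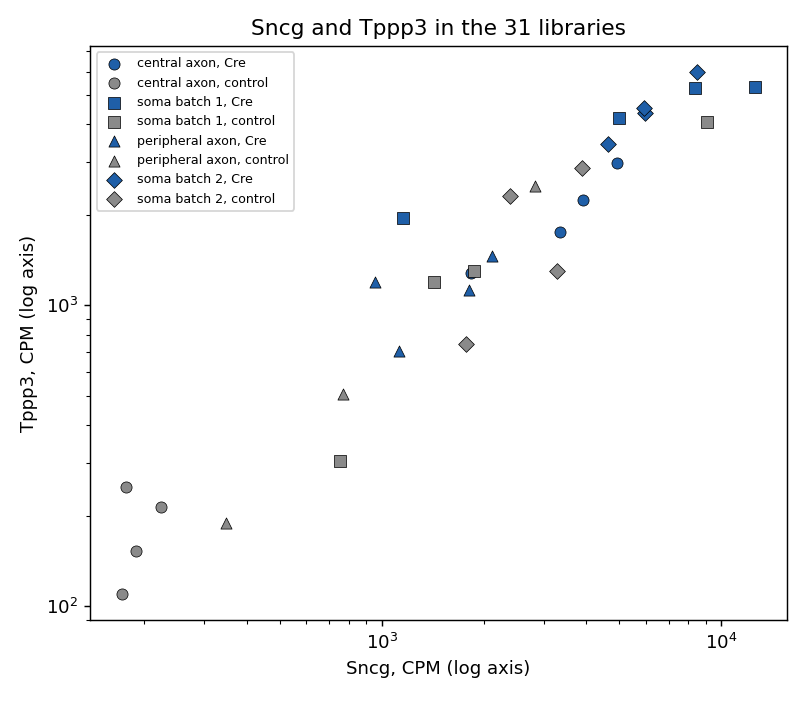
Sncg against Tppp3 in CPM, both on log axes, with 1 point per library; shape gives the tissue and batch, blue is Cre and grey control. Points run along a diagonal from central axon controls (172 to 224 CPM of Sncg) to Cre somas of both batches, and soma Cre library 4 of batch 1 (1154 CPM of Sncg, 1958 CPM of Tppp3) lies to its left.

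After Tppp3, the genes with a pattern most like Sncg were Sh3bgrl3 (likeness 0.945), S100a10 (0.944) and Dctn3 (0.925), the last a dynactin subunit. Those most like Tppp3 after Sncg were Dok4 (0.942), Tagln2 (0.923) and Anxa2 (0.919), where annexin A2 is the binding partner of the S100a10 protein. Sncb had Coro7 (0.874), Magee1 (0.868) and Tceal6 (0.815) closest to it. Tppp had Nrg2 (0.825), Mfsd6 (0.814) and Ttc8 (0.803). The relatives were less alike than Sncg and Tppp3 were, and the 2 batches differed. Between Sncg and Sncb r was -0.04 in batch 1 and 0.589 in batch 2, and between Tppp3 and Tppp it was 0.00 and 0.238.

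Other genes that act on microtubules were counted from a list of 46, which holds microtubule-associated proteins, stathmins, end-binding proteins and tubulin-modifying enzymes. In the comparisons of Cre with control libraries edgeR called 0 of the list's genes in central axons, peripheral axons, batch 1 somas (45 tested) and batch 2 somas, beside 0.0141%, 0%, 4.42% and 0% of all genes. At an unadjusted p under 0.05 the counts were 7, 1, 5 and 4, and DESeq2 called 0, 0, 2 and 1. Their median log2 fold change was 0.02 in central axons, where that of all genes was 0.11, and 0.39 in peripheral axons, where it was 0.07. In central axons against somas 8 rose and 3 fell, 23.9% of the list beside 13.7% of all genes called, with a median of -0.07 (all genes 0.05). Those that rose included the tubulin acetyltransferase Atat1 (log2 fold change 3.02, adjusted p = 0.000269), the tubulin deacetylase Hdac6 (2.41, adjusted p = 0.000602) and the detyrosinating enzyme Vash2 (2.81, adjusted p = 0.00672), and those that fell were Ttll7 (-1.95, adjusted p = 0.00757), Stmn3 (-1.61, adjusted p = 0.0299) and Ttl (-1.09, adjusted p = 0.0352), all by edgeR.

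In peripheral axons against somas 2 of the 46 microtubule genes rose and 13 fell, 32.6% of the list and near the 31.2% of all genes called, with a median of -0.73 (all genes -0.03). The vasohibin partner Svbp rose by 1.12 (adjusted p = 0.00879) and the katanin subunit Katna1 by 1.09 (adjusted p = 0.0399), by edgeR. Fez1, a kinesin adaptor, fell by 2.06 (adjusted p = 0.000968), Stmn1 by 1.64 (adjusted p = 0.00361) and the polyglutamylase subunit Ttll1 by 1.73 (adjusted p = 0.00552) on the log2 scale, by edgeR. Tppp3, at -2.23, lay below the list's median. Between the axon types, as peripheral minus central, 1 gene of the list was higher and 14 lower, 32.6% beside 13.1% of all genes called, with a median of -0.78 (all genes -0.26). Svbp was higher by 1.63 (adjusted p = 0.0151), and Hdac6 (-3.50, adjusted p = 0.000175), doublecortin or Dcx (-3.84, adjusted p = 0.00332) and Sirt2 (-2.58, adjusted p = 0.00580) were the first of the lower ones by edgeR.

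Synuclein partners at the presynaptic terminal, such as SNARE proteins, synapsins and chaperones, made up a list of 15. edgeR called 0 of them between Cre and control libraries in central axons, peripheral axons, batch 1 somas and batch 2 somas, beside the same 0.0141%, 0%, 4.42% and 0% of all genes. At an unadjusted p under 0.05 the counts were 2, 0, 1 and 4, and DESeq2 called 0, 0, 2 and 0. In central axons against somas 1 rose, the synphilin gene Sncaip (log2 fold change 2.75, adjusted p = 0.00511 by edgeR), and 1 fell, the chaperone Hspa8 (-1.06, adjusted p = 0.0263 by edgeR), 13.3% of the list beside 13.7% of all genes, with a median of -0.08 (all genes 0.05). In peripheral axons against somas 10 of 15 fell and 0 rose, 66.7% of the list beside 31.2% of all genes called, and the median was -2.01 (all genes -0.03). Synapsin 2 or Syn2 (-2.29, adjusted p = 0.000200), the vesicle GTPase Rab3a (-2.55, adjusted p = 0.000308) and the SNARE gene Stx1a (-2.58, adjusted p = 0.000525) led by edgeR, beside -2.25 for Sncg. Between the axon types 9 of 15 were lower in peripheral axons and 0 higher, 60% beside 13.1% of all genes called, with Syn2 (-2.63, adjusted p = 0.000435), Rab3a (-2.52, adjusted p = 0.00145) and Syn1 (-2.91, adjusted p = 0.00362) first by edgeR. The 10 general neuronal markers share Snap25 with this list and Stmn2 with the microtubule list. In peripheral axons against somas 7 of the 10 were called lower and 0 higher, with a median of -1.58. Between the axon types 2 were lower and 0 higher, with a median of -0.88. Spinal neuron markers moved in the same comparisons, with the sums given above. The part of both marker sets in the lists' counts was not tested.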

How the data were processed

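The authors deposited 2 tables of raw counts per Ensembl gene, 1 for each batch, and no normalization was applied to them. Reads were aligned with STAR 2.7.2b to mm10, per the submitters' processing notes; the counting tool, annotation, strand setting and handling of reads with several matches are not given in the sources used here. Per the labels' protocols, libraries were made with a SMART-Seq v4 kit from picogram amounts of RNA in axons, so a count is a read and not a molecule. All 55536 identifiers matched GENCODE M21.

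CPM and RPKM were computed from library totals and merged exon lengths. Each comparison was fitted with edgeR 4.0.16 (glmQLFit and glmQLFTest, TMM, filterByExpr) over the groups compared, with Benjamini-Hochberg adjustment over all genes tested and a threshold of 0.05; DESeq2 1.42.0 was an alternative. All 4 genes passed the low-count filter in each comparison. The fits of some comparisons were also run on simulated counts, with the same spread setting for all genes and no outlying library. Those runs do not cover libraries such as batch 1 soma control 3. Replicates differed by more than counting noise in each of 45 pairs (chi-square of at least 22.5 per degree of freedom). Libraries were not paired by replicate number in the main fits, and whether equal numbers come from the same animal was not settled. Besides the 4 genes, Scn10a and Rpl10a were named as a check of the labels. From the 2 pathway lists up to 3 called genes per direction with the smallest adjusted p were named, and for each of the 4 genes the 3 with the highest likeness. Acpp was named after its values were seen. The 4 genes and the lists were chosen with earlier results of these data known. P-values measure the spread between libraries only.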

Additional observations from a re-analysis of the deposited data

Results flagged for a closer look

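In 3 of 28 sets of 4 libraries tested (1 gene in 1 group), a library lay far from the others, past Dixon's 95% critical value. Chance gives about 1 in 20 only for independent sets of normally spread values. CPM near 0 need not be spread so, and the sets share libraries. The 3 of 28 is therefore not read as an excess. Sncg was at 9066 CPM in batch 1 soma control 3, with the other controls at 755 to 1872 CPM. Tppp was at 97.1 CPM in central axon control 4, with the others at 0 to 12.2 CPM, and at 30.8 CPM in batch 1 soma control 1, with the others at 0 to 0.125 CPM. The difference of axon against soma between peripheral and central axons was -4.29 for Sncb on the log2 scale, past the threshold of edgeR's interaction test (adjusted p = 0.00455).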

How the results depend on the processing

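Of 165 log2 fold changes of the 4 genes under other settings, 152 were counted as unchanged. A tested value had to keep its direction and its side of the threshold. A value given as a description had to move by less than the replicate SD of log2 CPM. Descriptions were all 4 genes in central axons, Cre against control, and Sncg and Tppp3 in the other comparisons with central axon libraries. The number of genes called in central axons, Cre against control (2), was 34 without the low-count filter, 217 with DESeq2 and 1 when the batch's 4 groups shared a fit (a joint fit); in peripheral axons (0) it was 27 with DESeq2 and 1 in the joint fit. In batch 1 somas (516) it was 2244 by library size, 1700 without the filter, 1878 with DESeq2 and 2114 in the joint fit, and in batch 2 somas (0) 21 with DESeq2's size factors in edgeR, 257 by library size, 162 without the filter, 1162 with DESeq2 and 175 in the joint fit. Central axon against soma (1990, of which 1250 higher) gave 3144 with DESeq2, 15 in the joint fit and 2439 (2146 higher) by library size, where the median over all genes tested was 0.50 instead of 0.05; in batch 1 somas it was 0.36 instead of -0.45. Peripheral axon against soma (4818) gave 1404 in the joint fit, the difference between axon types (2187) 3290 with DESeq2, and that between peripheral axon and soma excess (1) 23 without the filter and 352 with DESeq2. In batch 1 somas Sncg turned to 1.04 by library size and 0.23 in the joint fit, and Tppp3 to 1.28 and 0.55. In batch 2 somas Sncg passed without the filter (1.48) and with DESeq2 (1.37), Tppp3 likewise (1.68 and 1.57), and Sncb with DESeq2 (-1.68). Central axon against soma in the joint fit gave Sncb 2.02 and Tppp 3.13, no longer past the threshold, and Sncb in peripheral axon against soma passed with DESeq2 (-2.67). By the length of its longest transcript, mean Sncb rose to 131 RPKM in central axon Cre libraries, from 82.5; 7 of 64 levels moved beyond the replicate SD.

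With the replicate number as a block, central axons had 1 gene called in place of 2 and Sncb in peripheral axons turned to 0.89. The numbers gave no clear sign of pairing, and so few libraries cannot settle it. Of central axon and soma Cre libraries, 3 of 8 correlated best with their own number. Between libraries of the same number r ran from -0.005 to 0.196, with a mean of 0.116. Between libraries of different numbers it ran from -0.240 to 0.184. No paired analysis was possible for batch 1 somas, where 2 control columns carry no number of their own, or for peripheral axon against soma, which share no numbers.

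Leaving out each library in turn gave 0 to 5 genes called in central axons, 0 in peripheral axons, 0 to 3094 in batch 1 somas (0 without control 1, a or b), 0 to 1826 in batch 2 somas (without control 5), 822 to 2717 for central and 3220 to 6055 for peripheral axon against soma, 1394 to 2856 for their difference and 1 to 66 for the difference of excess. In peripheral axons, Cre against control, Sncg ran from -0.15 to 1.45, Tppp3 from -0.32 to 1.70 and Sncb from -1.02 to 1.34. In batch 1 somas Sncg ran from -3.77 to 2.25, Tppp3 from -3.18 to 2.09, Sncb from -6.07 to 0.43 and Tppp from -1.43 to 3.83, and in batch 2 somas Sncg from 1.19 to 1.65, Tppp3 from 1.37 to 1.99 and Tppp from -1.76 to 0.22. Tppp ran from 0.19 to 3.13 in central axons, from 2.22 to 3.01 in central axon against soma and from -0.29 to 0.92 in peripheral axon against soma. The Sncg share difference ran from -0.0509 to 0.154 points. The calls for Sncb in central axon against soma (8 of 8) and in the difference between axon types (16 of 16), and for Sncg and Tppp3 in peripheral axon against soma (8 of 8 each), held without any 1 library. The causes of these changes were not tested.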
